A study of Mus musculus with 2 samples.

Results

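The collagen and laminin genes are the protein chains from which the fibres and sheets of the extracellular matrix are built. They were taken by symbol: every row of the deposited matrices named Col, a number, a and a number, or Lam, one of the letters a, b or c, and a number. The rule found 55 of 55416 genes, 44 of them collagen and 11 of them laminin chains. Their raw counts were summed by class of nuclei in RNA-seq of single nuclei from the whole brain of fetal mice. The study has 1 library from wildtype mice and 1 from mice in which Cav1, the gene of caveolin 1, was knocked out. Nuclei from frozen brain were captured with 10x Genomics 3′ chemistry, in which a unique molecular identifier (UMI) marks each captured RNA, so that PCR copies count once. The fetal age in days, the strain, the type of knockout allele, the sex and the number of fetuses or litters behind each library are not given in the sources used here. With 1 library per genotype there is no spread between animals and no test of genotype, so each difference below compares 2 libraries. Where a pair of values is given, the wildtype-labelled library comes first. A log2 ratio sets the knockout-labelled over the wildtype-labelled library. Intervals, printed in brackets after a value, are 95% intervals and cover counting error only.

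Collagens are trimers of chains wound into a triple helix. Fibrillar collagens form the fibres of connective tissue, and type IV collagen forms the net of the basement membrane, the thin sheet under epithelia and around vessels. Laminins are crosses of an alpha, a beta and a gamma chain that polymerise in the same sheet and bind integrins and dystroglycan on cells. In fetal brain, basement membranes lie between the meninges and the end-feet of radial glia at the brain surface, and around the growing vessels, where endothelial cells and mural cells (pericytes and smooth muscle) share one.

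Nuclei entered with 500 or more genes detected and no more than 5% of UMIs from mitochondrial genes. This kept 6686 nuclei with 17205381 UMIs in the wildtype-labelled and 6680 nuclei with 19878903 UMIs in the knockout-labelled library, with medians of 2133.5 and 2366 UMIs. Clusters were built without the 55 genes and named from marker lists. They gave 109 and 110 fibroblast-like nuclei (11 of 12 markers raised, among them Dcn, Lum, Foxc1 and Slc6a13), and 82 and 104 vascular nuclei, made of 48 and 64 endothelial-like (12 of 12 markers) and 34 and 40 mural-like nuclei (10 of 10). Progenitor-like nuclei (radial glia, dividing and intermediate progenitors) numbered 1316 and 1121, and neuron-like nuclei 3947 and 3705, while 724 and 1118 nuclei stayed unnamed. Cav1, which marks endothelium, had 71 and 80 UMIs over all nuclei and so did not separate the labels, while endothelial nuclei held 17 and 1. Radial glia held 24 and 22, and neuron nuclei 12 and 34, at a log2 ratio of 1.31 (0.32 to 2.39). Which part of Cav1 is deleted is not given in the sources used here. Whether transcripts of a disrupted allele were still counted was not tested, and the libraries are called by their labels. The libraries share 10 kept barcodes.

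Fibroblast nuclei were the richest source of matrix chains for their number. All 55 genes had UMIs, 13908 and 17587 in all. Fibroblast nuclei held 18.4% and 18.5% of these, although they were only 1.63% and 1.65% of the nuclei. Vascular nuclei held 10.1% and 12.9%, progenitor nuclei 16.9% and 15.1% and neuron nuclei 40.4% and 37.1%. The summed level, in counts per 1000000 UMIs of the class (CPM), was 7404 and 8390.4 in fibroblast, 3929 and 4571 in vascular, 792 and 948 in progenitor and 514 and 522 in neuron nuclei. The order of the 4 classes was the same in both libraries. The log2 ratio of the sum was 0.18 (0.11 to 0.26) in fibroblast, 0.22 (0.12 to 0.32) in vascular, 0.26 (0.18 to 0.34) in progenitor and 0.023 (-0.029 to 0.075) in neuron nuclei, so the classes lay further apart than the libraries.

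Members were then set against neuron nuclei, the class with the lowest summed level, and a chain was counted at 4-fold or more in both libraries with at least 50 UMIs. In fibroblast nuclei 29 of 43 members passed, against 4.41% of all genes. In vascular nuclei 15 of 38 passed, against 4.29%, and in progenitor nuclei 12 of 41, against 3.85%. The progenitor count was 6 with a minimum of 200 genes and 5 with one of 1000. Within the vessel wall 9 of 35 members passed in endothelial nuclei, against 3.86%, and 16 of 37 in mural nuclei, against 3.23%. The minimum was counted over the class and neuron nuclei together, so some mural chains passed on few UMIs. Examples are Col7a1, with 1 and 2 UMIs in mural nuclei, and Col6a3, with 1 and 5. In mural nuclei 3 UMIs are 30.7 and 22.6 CPM, against 11.6 and 8.27 in endothelial nuclei, so these 2 counts do not rank the classes. In the cluster with choroid plexus markers 11 of 37 passed, against 3.54%. Fibroblast and vascular nuclei shared 13 chains, which is 44.8% of the fibroblast and 86.7% of the vascular set. The largest folds in fibroblast nuclei belonged to Lamc3 (133 and 303 in the wildtype-labelled and knockout-labelled library), Col4a6 (129 and 118), Col13a1 (94.7 and 182), Col4a5 (76.8 and 80.0) and Lama4 (120.0 and 68.1). In vascular nuclei they belonged to Lama4 (155 and 162), Lamc3 (45.9 and 133), Col4a2 (45.0 and 57.6), Col4a1 (42.8 and 65.2) and Col18a1 (38.9 and 37.2). Folds over a low neuron level carry the counting error of few neuron UMIs. The fibroblast level of Lamc3 was 171 and 169.8 CPM, so its folds differed between the libraries through the low neuron level. Among 47 members with at least 50 UMIs over the 4 classes, fibroblast nuclei had the highest level in both libraries for 25, vascular nuclei for 13, progenitor nuclei for 2 (Col2a1 and Col22a1) and neuron nuclei for none. The class differed between the libraries for the other 7. The 50 UMIs were counted over the 4 classes together, so some of these highest levels rest on few UMIs. Examples are Col20a1, with 3 and 2 UMIs in vascular nuclei, and Lamb3, with 2 and 1 in fibroblast nuclei. Col19a1 had 8 and 9 UMIs in vascular nuclei, of which 8 and 7 came from 1 nucleus per library.

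**Figure D1:**
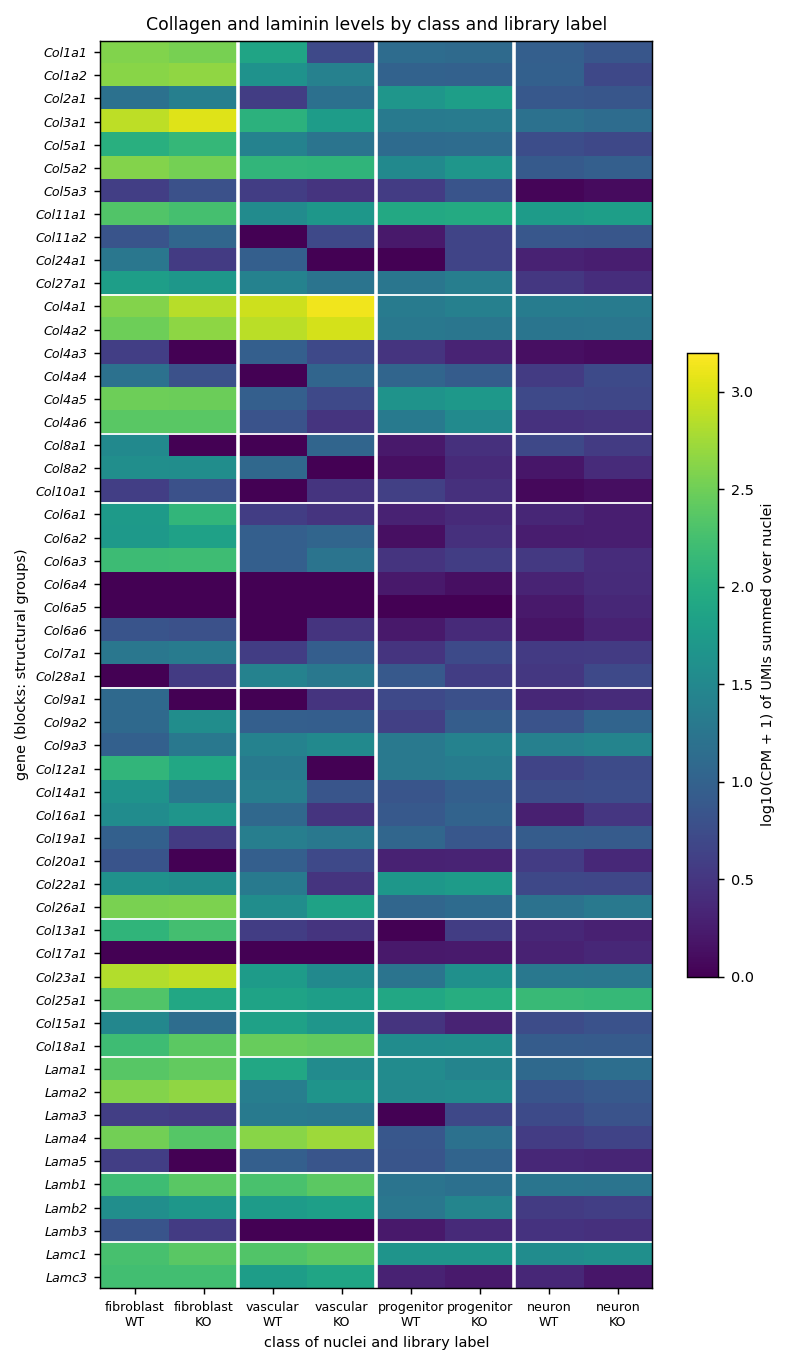
Level of the collagen and laminin genes (rows, in blocks by structural group) in fibroblast, vascular, progenitor and neuron nuclei of the wildtype-labelled (WT) and knockout-labelled (KO) library, as log10 of CPM plus 1. Examples of bright cells are Col3a1, Col1a2 and Col23a1 in fibroblast nuclei and Col4a1, Col4a2 and Lama4 in vascular nuclei, while the neuron columns are dim except for Col25a1.

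Type IV collagen has 6 chain genes that lie as 3 head-to-head pairs, each pair reading outwards from a shared start region. Col4a1 and Col4a2 encode the common net of all basement membranes, while Col4a3, Col4a4, Col4a5 and Col4a6 form nets of more restricted sheets such as those of kidney, lung and some muscle. On GRCm39 (GENCODE M39), Col4a1 lies on the minus strand of chromosome 8 from 11248423 to 11362826 and Col4a2 on the plus strand from 11362471 to 11499287, so that their starts overlap by 356 bases. Col4a6 (minus strand, 139948399 to 140257072) and Col4a5 (plus strand, 140258354 to 140472231) lie on chromosome X with 1281 bases between their starts. Col4a4 and Col4a3 lie on chromosome 1 and overlap by 159 bases. The start regions of the first and second pair are shown, because both genes of each were highest in the same class and the pairs differed in that class.

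The windows run from 250 bases before to 50 bases after the annotated start, 5′ to 3′ on the strand of the gene, from RefSeq on GRCm38.p6. RefSeq starts can differ from the GENCODE starts given above, so the distances and overlaps given there are not those of these windows. Capitals mark the bases that both windows of a pair share. The Col4a1 window is chr8:11312777-11313076 on the minus strand and the Col4a2 window is chr8:11312555-11312854 on the plus strand.
Col4a1: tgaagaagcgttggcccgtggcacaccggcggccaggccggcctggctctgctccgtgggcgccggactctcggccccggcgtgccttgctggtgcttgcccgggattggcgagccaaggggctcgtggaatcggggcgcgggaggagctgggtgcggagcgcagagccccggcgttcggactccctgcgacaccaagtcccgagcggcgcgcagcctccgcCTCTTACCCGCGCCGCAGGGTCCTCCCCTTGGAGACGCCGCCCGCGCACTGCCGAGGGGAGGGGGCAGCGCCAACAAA
Col4a2: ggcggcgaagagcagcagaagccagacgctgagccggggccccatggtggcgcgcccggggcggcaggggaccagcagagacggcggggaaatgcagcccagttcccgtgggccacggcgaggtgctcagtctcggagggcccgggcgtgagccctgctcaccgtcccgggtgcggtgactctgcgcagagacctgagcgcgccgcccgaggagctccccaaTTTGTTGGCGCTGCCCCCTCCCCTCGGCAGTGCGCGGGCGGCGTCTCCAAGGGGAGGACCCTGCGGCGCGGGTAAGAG
The Col4a6 window is chrX:141474027-141474326 on the minus strand and the Col4a5 window is chrX:141475169-141475468 on the plus strand, and they share no base.
Col4a6: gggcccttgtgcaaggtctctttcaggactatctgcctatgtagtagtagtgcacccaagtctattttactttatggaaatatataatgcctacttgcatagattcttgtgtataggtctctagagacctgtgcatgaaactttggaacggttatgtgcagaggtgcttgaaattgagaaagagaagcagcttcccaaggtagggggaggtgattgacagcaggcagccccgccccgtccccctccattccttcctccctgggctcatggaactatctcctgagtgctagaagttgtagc
Col4a5: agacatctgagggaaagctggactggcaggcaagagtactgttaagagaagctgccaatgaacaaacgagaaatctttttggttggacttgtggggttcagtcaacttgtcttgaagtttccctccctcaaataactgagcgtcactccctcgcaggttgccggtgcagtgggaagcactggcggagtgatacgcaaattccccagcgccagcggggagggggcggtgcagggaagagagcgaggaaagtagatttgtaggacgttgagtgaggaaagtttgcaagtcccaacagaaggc

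The Col4a1 and Col4a2 windows share 78 bases and hold 74% and 73.7% G and C, against a median of 52.7% over 32851 RefSeq windows of the same length. The Col4a6 and Col4a5 windows hold 48.3% and 52.7%. The GC box letters GGGCGG, searched on both strands, occur once in the Col4a1 window, 3 times in Col4a2, once in Col4a6 and once in Col4a5. The Col4a1 match lies in the shared bases, so the same site is also counted in the Col4a2 window. They occur in 35.7% of all windows and in 26 of the 44 windows found for 40 of the 55 genes. The letters CCAAT, also on both strands, occur once each in the Col4a1, Col4a2 and Col4a5 windows and in 37.4% of all windows. None of these windows holds TATAAA, which occurs in 13.6% of all windows. A match of letters is a description and not a bound site.

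Col4a1 and Col4a2 were the main chains of the vessels. Col4a1 in endothelial nuclei had 245 and 548 UMIs, or 946 CPM (95% interval 831 to 1072) in the wildtype-labelled and 1509.8 CPM (1386 to 1642) in the knockout-labelled library. Col4a2 there had 198 and 415 UMIs, or 764 and 1143 CPM. In mural nuclei the levels were 828 and 920.1 CPM for Col4a1 and 695 and 558 CPM for Col4a2, and in fibroblast nuclei 405 and 723 CPM for Col4a1 and 312 and 448 CPM for Col4a2. Progenitor nuclei stood at 20.3 and 24.0 CPM for Col4a1 and 18.2 and 17.2 CPM for Col4a2, and neuron nuclei at 21.3 and 20.7 and, for Col4a2, 16.6 and 17.1. Both genes were thus far higher in the 3 matrix-making classes in each library. Per 10 kb of gene length, introns included, the vascular level was 79.9 and 118 CPM for Col4a1 and 54.5 and 72.1 for Col4a2, so the Col4a1 level stood above that of Col4a2 in both libraries.

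With each nucleus thinned to 1000 UMIs, 57.7% and 57.1% of vascular nuclei had a Col4a1 UMI, against 1.75% and 1.96% of neuron nuclei, taken as background. Unthinned, the shares were 80.5% and 83.7% of vascular and 5.37% and 5.70% of neuron nuclei. Median UMIs were 2504.5 and 2544 in vascular, and 2401 and 2805 in neuron nuclei. Col4a2 gave 48.7% and 56.1% of thinned vascular and 1.85% and 1.65% of thinned neuron nuclei. Both genes stood far above the neuron share in vascular nuclei of both libraries. In fibroblast nuclei the thinned shares for Col4a1 were 29.2% and 45.4%.

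**Figure D2:**
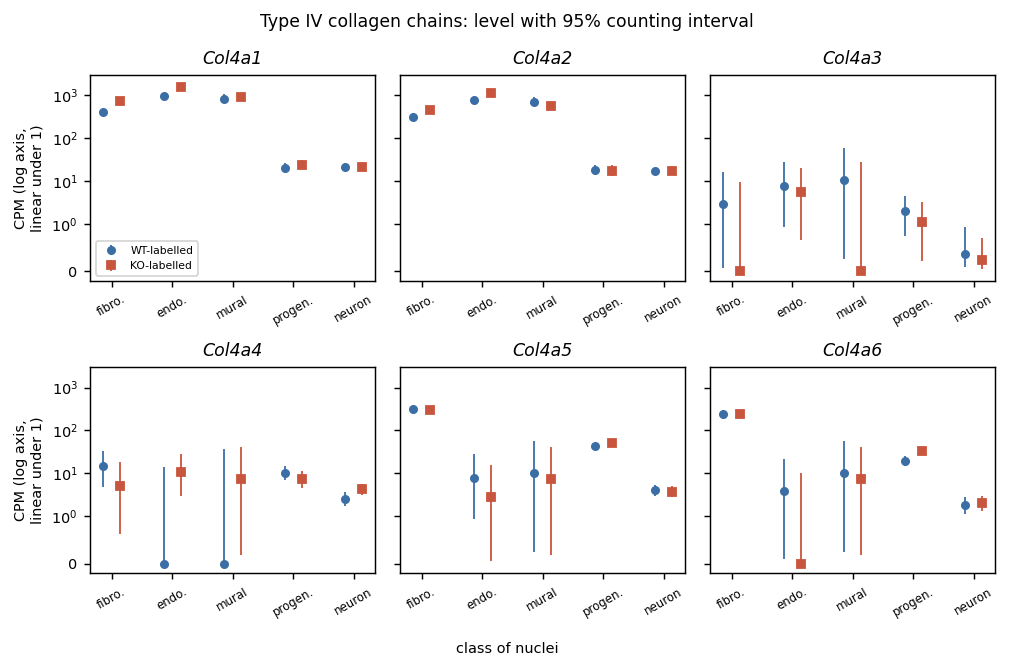
Level of the 6 type IV chains in fibroblast, endothelial, mural, progenitor and neuron nuclei of the wildtype-labelled (blue circles) and knockout-labelled (red squares) library, as CPM on a log axis that is linear under 1, with 95% counting intervals. Col4a1 and Col4a2 are high in the 3 left classes, and Col4a5 and Col4a6 in fibroblast and, lower, progenitor nuclei.

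Between the libraries, Col4a1 was higher with the knockout label in endothelial nuclei by 0.67 (0.45 to 0.90) on the log2 scale, and Col4a2 by 0.58 (0.33 to 0.83). In fibroblast nuclei Col4a1 had 140 and 281 UMIs, at a log2 ratio of 0.84 (0.54 to 1.14), while Col4a2 had 108 and 174 UMIs and a ratio of 0.52 (0.17 to 0.88). In mural nuclei the ratios were 0.15 (-0.26 to 0.58) for Col4a1 and -0.32 (-0.81 to 0.18) for Col4a2, and in neuron nuclei -0.04 (-0.30 to 0.22) and, for Col4a2, 0.049 (-0.24 to 0.34). The interval lay above 0 for both genes in endothelial and in fibroblast nuclei, and spanned 0 for both in mural and neuron nuclei. Whether the classes differ in this could not be tested with 1 library per label.

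The endothelial sums rested in part on single nuclei. In each library 1 nucleus held many of the Col4a1 UMIs, 88 of 245 with the wildtype label and 80 of 548 with the knockout label. Without these 2 nuclei the endothelial ratio of Col4a1 was 1.05 (0.79 to 1.32), and with every nucleus weighted equally it was 0.49. For Col4a1 and Col4a2 together, the median endothelial nucleus had 1293 CPM with the wildtype label and 1687 with the knockout label. The upper quartiles were 1989 and 4297, and the lower quartiles 609 and 614. The endothelial nuclei of the libraries overlapped widely, and the gap was in the upper part of the range. In fibroblast nuclei the medians were 331 and 725, and 40 of 109 and 26 of 110 nuclei had none of either gene. In mural nuclei the medians went the other way, at 1833 and 1361, with 4 nuclei in each library that had none.

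**Figure D3:**
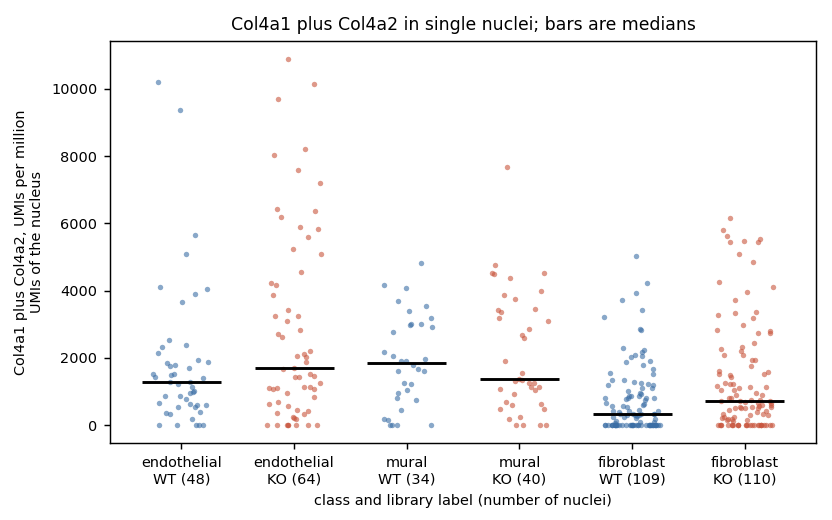
Col4a1 plus Col4a2 in each endothelial, mural and fibroblast nucleus as CPM of the nucleus, by library label, with the number of nuclei in brackets and a bar at the median. The upper quartile of endothelial nuclei is 1989 with the wildtype and 4297 with the knockout label, while both endothelial groups reach down to 0.

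Other markers moved beside these genes. The 12 endothelial markers summed to 6771 and 9304 CPM in endothelial nuclei, a log2 ratio of 0.46 (0.37 to 0.54), with all 12 found in both libraries. The 10 mural markers had 70 and 242 UMIs there and the haemoglobin and other erythroid markers 227 and 1264. Their part in the Col4a1 difference was not tested. Over all nuclei Col4a1 had 873 and 1427 UMIs, a ratio of 0.50 (0.38 to 0.62), and the endothelial markers a ratio of 0.62 (0.55 to 0.68). In such a sum over all nuclei, more nuclei of a class and more RNA per nucleus cannot be told apart, and endothelial nuclei made up 0.718% and 0.958% of the libraries.

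Col4a5 and Col4a6 had another distribution. In fibroblast nuclei Col4a5 had 107 and 117 UMIs (309 and 301 CPM) and Col4a6 82 and 92 (237 and 237 CPM). Vascular nuclei held 3 and 2 UMIs of Col4a5 and 2 and 1 of Col4a6, at or under the floor of 3 UMIs, although they held 326 and 670 of Col4a1. The second class was radial glia, with 55.1 and 61.1 CPM of Col4a5 and 25.4 and 45.2 CPM of Col4a6, against 4.03 and 3.77 for Col4a5 and 1.83 and 2.0 for Col4a6 in neuron nuclei. The fibroblast ratios between libraries were -0.039 (-0.43 to 0.35) for Col4a5 and -0.0022 (-0.45 to 0.45) for Col4a6, and both intervals spanned 0. In progenitor nuclei Col4a6 was higher with the knockout label, 57 and 93 UMIs and 0.79 (0.30 to 1.29), and Col4a5 had 128 and 139 UMIs and 0.20 (-0.16 to 0.56). Of the Col4a6 UMIs with the knockout label, 14 came from 1 nucleus, and without the leading nuclei the ratio was 0.63 (0.12 to 1.16).

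Col4a3 and Col4a4, the chains known from the filtering membrane of the kidney, were rare. Col4a3 had 25 and 24 UMIs and Col4a4 90 and 122 over all nuclei. The cluster that carried choroid plexus markers (151 and 211 nuclei) held 10 and 12 of the Col4a3 UMIs, or 22.0 and 18.2 CPM, against 0.366 and 0.240 CPM in neuron nuclei. Its Col4a4 level was 17.6 and 19.7 CPM, against 2.56 and 4.25. So the highest levels of the 3 pairs lay in different nuclei in both libraries: vascular for the first, fibroblast for the second and, at few counts, the choroid plexus cluster for the third.

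The laminin alpha chains split the classes further. Lama1, the alpha chain of early embryonic and meningeal sheets, had 231 and 273 CPM in fibroblast, 104 and 41.3 in endothelial and 41.0 and 39.1 in radial glia nuclei, against 11.4 and 13.2 in neuron nuclei. Its endothelial UMIs, 27 and 15, included 18 from 1 nucleus of the wildtype-labelled library. Lama2, the chain of muscle and perivascular laminin, had 139 and 182 UMIs (402 and 468 CPM) in fibroblast, 40.9 and 98.0 CPM in mural and 15.4 and 24.8 CPM in endothelial nuclei. Intermediate progenitors stood at 65.3 and 52.6 CPM for Lama2, above the 20.0 and 27.5 of radial glia in both libraries.

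Lama4, the alpha chain of vessel walls, was the member furthest above neurons in vascular nuclei. It had 136 and 239 UMIs (525 and 658 CPM) in endothelial, 164 and 234 CPM in mural, 329.6 and 229 CPM in fibroblast and 2.75 and 3.36 CPM in neuron nuclei. Between libraries its ratio was 0.36 (0.063 to 0.65) in vascular and -0.53 (-0.94 to -0.11) in fibroblast nuclei, so the direction differed between these classes, a difference that was not tested. With the nuclei of the highest doublet scores removed the vascular ratio was 0.71 and the fibroblast ratio -0.51. Lama5, another vessel alpha chain, had only 48 and 60 UMIs in all nuclei and 3 and 3 in vascular nuclei. Lama3, an epithelial chain, had 58 and 102 UMIs in all and its highest level, 27.0 and 22.0 CPM, in endothelial nuclei on 7 and 8 UMIs.

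Of the beta chains, Lamb1 was found at like levels in fibroblast (159 and 239 CPM), endothelial (201 and 251) and mural nuclei (164 and 241), against 16.3 and 16.1 in neuron nuclei. Its ratio between libraries was 0.59 (0.093 to 1.10) in fibroblast and 0.38 (-0.057 to 0.83) in vascular nuclei, and the interval spanned 0 in the second. Lamb2 was lower in these classes, 37.6 and 48.9 CPM in fibroblast and 56.0 and 62.6 in vascular nuclei, and 17.6 and 27.5 in progenitor nuclei. Lamb3, which pairs with Lama3 in the laminin of skin, had 30 and 38 UMIs in all and 0 in vascular nuclei, which allows up to 3 UMIs per library.

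Of the gamma chains, Lamc1 is the common one and was the most widespread laminin here. It had 185 and 237 CPM in fibroblast, 189 and 256 in endothelial, 276 and 219 in mural, 44.6 and 44.7 in progenitor and 35.3 and 38.8 in neuron nuclei. Thinned to 1000 UMIs, 3.26% and 3.95% of neuron nuclei had a Lamc1 UMI, against 0.0530% and 0.0280% for Lamc3, a chain found mainly outside neurons. The Lamc1 share also stood above the thinned neuron shares of Col4a1, Col4a2 and Col3a1, but by a much smaller margin. Lamc3 had 59 and 66 UMIs in fibroblast and 19 and 24 in mural nuclei (CPM of 171 and 169.8 in the first and 194 and 181 in the second), but 7.72 and 35.8 CPM in endothelial and 1.28 and 0.561 in neuron nuclei. Within the vessel wall, Lamc3 thus separated mural from endothelial nuclei in both libraries, while Lama4 was higher in the endothelial nuclei.

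**Figure D4:**
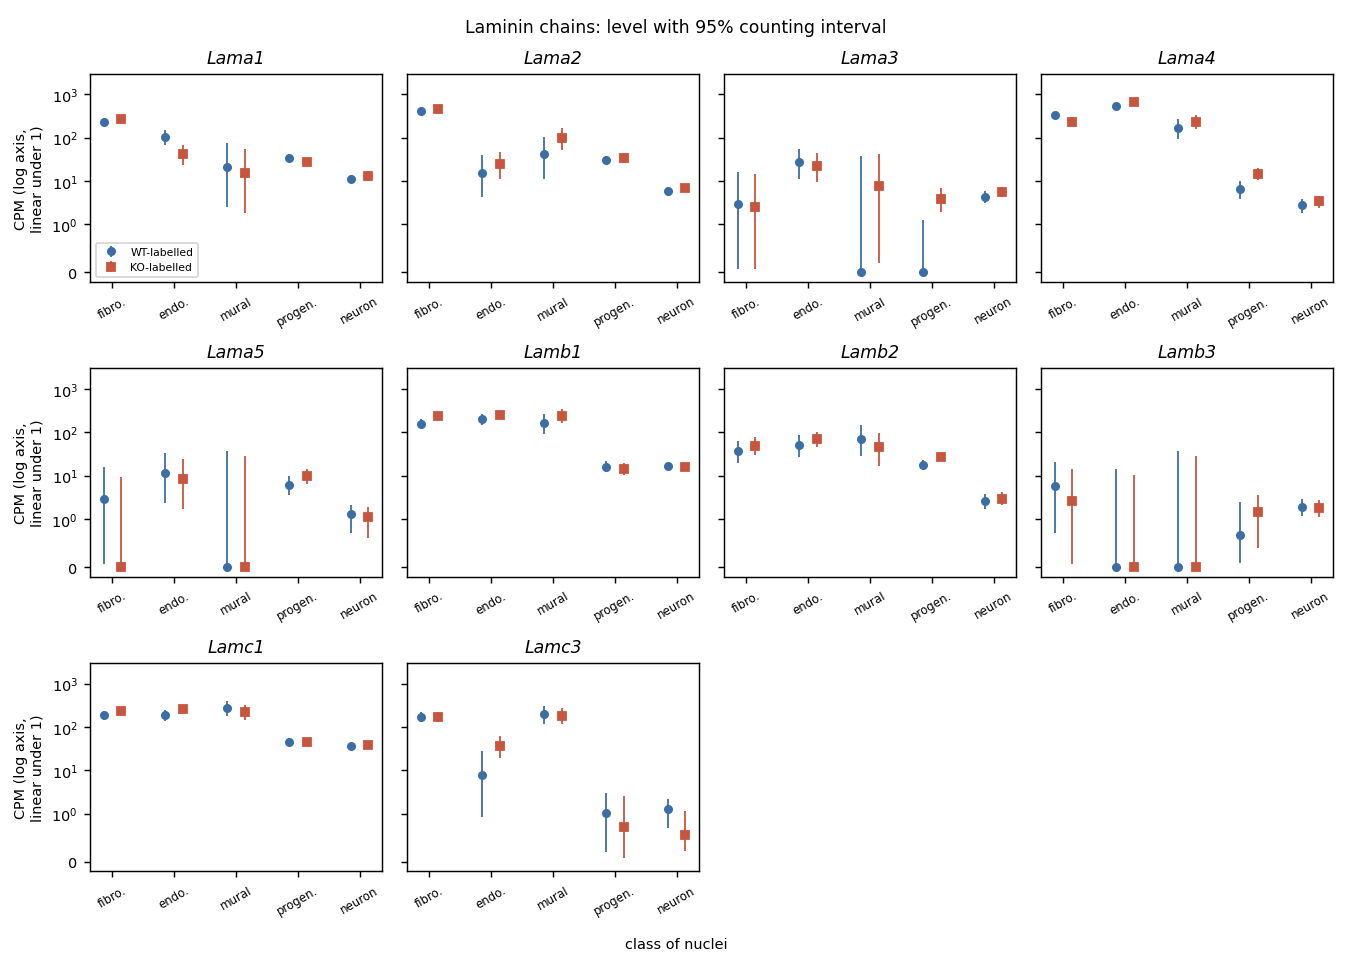
Level of the laminin chains in fibroblast, endothelial, mural, progenitor and neuron nuclei of the wildtype-labelled (blue circles) and knockout-labelled (red squares) library, as CPM on a log axis that is linear under 1, with 95% counting intervals. Lama4 is highest in endothelial nuclei, Lama2 and Lama1 in fibroblast nuclei, Lamc3 in fibroblast and mural nuclei, and Lamb1 and Lamc1 are alike in the 3 left classes.

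The fibrillar collagens marked fibroblast nuclei. Col3a1, the type III chain of soft connective tissue, had 260 and 435 UMIs there (752 and 1119 CPM), and the 2 type I chains had 134 and 134 for Col1a1 (387 and 345 CPM) and 148 and 182 for Col1a2 (428 and 468 CPM). Per 10 kb of gene length these were 167 and 248 CPM for Col3a1, 230.3 and 205 for Col1a1 and 116 and 127 for Col1a2, against 35.4 and 63.2 for Col4a1. All 3 fibrillar levels per length were above that of Col4a1 in both libraries, and Col1a1 and Col3a1 changed places between the libraries. This order depends on the scaling, and whether introns were counted is not given. By CPM alone Col4a1 had 405 and 723, above Col1a1 in both libraries and above Col1a2 with the knockout label. Thinned to 1000 UMIs, 50.9% and 63.0% of fibroblast and 1.54% and 1.34% of neuron nuclei had a Col3a1 UMI, with median depths of 2482 and 3009 UMIs in the first and 2401 and 2805 in the second. Unthinned, the shares were 71.6% and 87.3% of fibroblast and 3.75% and 3.51% of neuron nuclei.

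Col3a1 was higher with the knockout label in fibroblast nuclei by 0.57 (0.35 to 0.80) on the log2 scale, a fold of 1.49, while Col1a1 had -0.17 (-0.52 to 0.19) and Col1a2 0.13 (-0.19 to 0.45). The interval of Col3a1 lay above 0 and above that of Col1a1, and overlapped that of Col1a2. The summed markers of fibroblasts had 899 and 961 UMIs in these nuclei, a ratio of -0.072 (-0.20 to 0.061). Of the fibrillar chains that regulate fibre width, Col5a1 had 104 and 134 CPM in fibroblast nuclei and Col5a2 408 and 339.6, and Col5a2 was also found in mural nuclei (174 and 189 CPM) and endothelial nuclei (108 and 99.2 CPM). Col5a3 had 21 and 23 UMIs in all nuclei, 8 and 16 of them in radial glia.

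In endothelial nuclei the type I and III chains had fewer UMIs with the knockout label, on few nuclei. Their log2 ratios were -1.87 (-3.08 to -0.77) for Col3a1, -4.01 (-7.14 to -1.99) for Col1a1 and -2.07 (-3.89 to -0.54) for Col1a2, each on under 50 UMIs. Together Col3a1, Col1a1 and Col1a2 had 64 UMIs with the wildtype label and 17 with the knockout label. Of the 64 UMIs, 28 came from 1 nucleus and 44 from 3 nuclei. The 12 fibroblast markers moved with them, with 66 and 26 UMIs in endothelial nuclei, and their part in the difference was not tested. In mural nuclei the 3 chains had 17 and 26 UMIs and the fibroblast markers 25 and 25.

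The remaining fibrillar chains were spread over more classes. Col2a1, the cartilage chain that is also made by early neuroepithelium, had 141 and 169 UMIs in progenitor nuclei (47.6 and 60.4 CPM), 62.6 and 72.1 CPM in radial glia, 14.5 and 23.2 in fibroblast and 6.68 and 6.25 in neuron nuclei. The 7 cartilage markers had only 115 and 153 UMIs over all nuclei. Col11a1 had 620 and 768 UMIs in neuron and 251 and 252 in progenitor nuclei, or 56.8 and 61.5 CPM in the first and 84.8 and 90.1 CPM in the second, but a higher level of 214 and 180.1 CPM in fibroblast nuclei. Col27a1 was raised over neuron nuclei in fibroblast (60.7 and 48.9 CPM), vascular (25.2 and 16.1) and progenitor nuclei (16.9 and 22.2), against 2.29 and 1.6. Col11a2, a cartilage chain, had 85 and 109 UMIs in all nuclei, of which 70 and 78 lay in neuron nuclei, and Col24a1 had 29 and 28.

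The type VI chains, which form beaded filaments around cells, were fibroblast chains too. Col6a1 had 19 and 49 UMIs in fibroblast nuclei (54.9 and 126 CPM), Col6a2 18 and 26 (52.0 and 66.9 CPM) and Col6a3 53 and 62 (153 and 159.5 CPM), while their levels in neuron nuclei were under 3 CPM each. The ratio between libraries was 1.20 (0.41 to 2.05) for Col6a1, 0.36 (-0.56 to 1.32) for Col6a2 and 0.058 (-0.49 to 0.62) for Col6a3, so of the 3 chains of the common trimer only Col6a1 had an interval above 0. The alternative chains Col6a4, Col6a5 and Col6a6 had 9 to 25 UMIs per library in all nuclei and no more than 2 per library in fibroblast nuclei. Col7a1, the chain of anchoring fibrils, had 44 and 58 UMIs in all nuclei, and Col28a1, known from nerve, had 62 and 78.

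The short network chains Col8a1 and Col8a2, known from the sheet under corneal and vascular endothelium, were found in the choroid plexus cluster. Col8a2 had 16 and 37 UMIs there (35.2 and 56.2 CPM) of 42 and 79 in all nuclei, and Col8a1 29 and 27 (63.7 and 41.0 CPM) of 95 and 78. Fibroblast nuclei held 13 and 14 UMIs of Col8a2 (37.6 and 36.0 CPM) and 11 and 0 of Col8a1, and vascular nuclei 0 and 5 of Col8a1 and 4 and 0 of Col8a2. Single nuclei held 9 of the 11 fibroblast and 4 of the 5 vascular Col8a1 UMIs, and 3 of the 4 vascular Col8a2 UMIs. Col10a1, the chain of growth plate cartilage, had 13 and 18 UMIs in all nuclei.

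The chains grouped here with those that decorate fibres were spread over more classes. Col26a1 was a fibroblast chain, with 124 and 142 UMIs (359 and 365 CPM) against 15.0 and 18.7 CPM in neuron nuclei. Col12a1 had 127 and 82.3 CPM, Col14a1 43.4 and 18.0 and Col16a1 34.7 and 46.3 in fibroblast nuclei, and each had under 5 CPM in neuron nuclei. Col22a1, known from tissue junctions, was led by progenitor nuclei, with 143 and 158 UMIs (48.3 and 56.5 CPM) against 3.94 and 3.77 CPM in neuron nuclei. It was found in radial glia at 57.7 and 56.2 CPM and in dividing nuclei at 62.5 and 97.2, but had only 5 and 7 UMIs in intermediate progenitors (8.16 and 14.7 CPM). The level in intermediate progenitors was the lowest of the 3 in both libraries.

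The 3 chains of type IX collagen, a cartilage and eye collagen, were unequal. Col9a3 had 420 and 593 UMIs in all nuclei, of which 261 and 332 lay in neuron nuclei (23.9 and 26.6 CPM), with its highest level in the choroid plexus cluster (103 and 121 CPM). Col9a2 had 95 and 196 and Col9a1 34 and 37. Per 10 kb of gene length the levels over all nuclei were 9.97 and 12.2 CPM for Col9a3, 3.46 and 6.18 for Col9a2 and 0.263 and 0.248 for Col9a1, in that order in both libraries. Col19a1 had 131 and 135 UMIs, 31 and 18 of them in radial glia and 81 and 90 in neuron nuclei, and Col20a1 had 40 and 24.

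The membrane collagens, whose chains span the cell membrane and can be shed, held the collagen with the most UMIs in neurons. Col25a1, which is needed for motor nerves to enter muscle, had 1623 and 1713 UMIs in neuron nuclei (149 and 137 CPM), the most of any member there. The Col25a1 gene spans 468 kb, introns included, against 24.5 kb for Col9a3, and this rank by UMIs was not scaled by gene length. The Col25a1 level differed widely between clusters of neurons. In the cluster led by Pax7, Dmbx1 and Sox14 (219 and 149 nuclei) it was 968 and 709 CPM, and in that led by Ikzf1, Rarb, Ebf1 and Isl1 (150 and 103 nuclei) 619 and 607. In the cluster led by Unc5d (441 and 318 nuclei) it was 6.69 and 4.35 CPM. The first and second of these clusters stood far above the last in both libraries. Col11a1 stood at 66.3 and 74.2 CPM in the first of these clusters and 89.2 and 78.3 CPM in the last, a narrower range. Lamc1 stood at 42.2 and 28.2 CPM in the first and 31.2 and 42.1 CPM in the last.

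Col23a1, another membrane chain, was among the leading fibroblast genes, with 232 and 306 UMIs (671 and 787 CPM) against 17.9 and 17.6 CPM in neuron nuclei. Col13a1, which is known from the neuromuscular junction, had 42 and 68 UMIs in fibroblast nuclei of 64 and 97 in all. Col17a1, the chain of skin hemidesmosomes, had 16 and 19 UMIs. Of the multiplexins, basement membrane collagens with long interruptions, Col18a1 had 100 and 132 UMIs in endothelial (386 and 364 CPM), 162 and 247 CPM in fibroblast and 30.7 and 7.54 CPM in mural nuclei. Col15a1 likewise had 88.8 and 63.4 CPM in endothelial nuclei on 23 and 23 UMIs, and 1 and 0 UMIs in mural nuclei. Both multiplexins were thus on the endothelial side of the vessel wall in both libraries.

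The libraries were then compared gene by gene over each class, with a gene counted as higher or lower at 1.5-fold or more and at least 50 UMIs over both libraries. Over all nuclei, 48 members had enough UMIs, and 7 had fewer: Col4a3, Col5a3, Col6a4, Col6a5, Col6a6, Col10a1 and Col17a1. With the knockout label 3 were higher, against 3.57% of all genes: Col8a2, Col9a2 and Lama3. Their log2 ratios were 0.70 (0.15 to 1.28) for Col8a2, 0.84 (0.48 to 1.21) for Col9a2 and 0.61 (0.13 to 1.10) for Lama3, on the UMIs given above. Col20a1 was lower, against 1.34%, with -0.95 (-1.74 to -0.18). These counts are close to the background. The median ratio of the 48 was 0.12, against -0.010 over all genes with enough UMIs.

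In fibroblast nuclei 24 members had enough UMIs. Higher with the knockout label were 4, against 5.85% of all genes: Col4a1, Col6a1, Col18a1 and Lamb1, with 56 and 96 UMIs for Col18a1, a log2 ratio of 0.61 (0.12 to 1.11), and 55 and 93 for Lamb1. Lower were 2, against 6.3%: Col25a1, with 73 and 32 UMIs and -1.36 (-2.01 to -0.74), and Col12a1, with 44 and 32 and -0.63 (-1.33 to 0.062). Of the Col25a1 UMIs with the wildtype label 19 came from 1 nucleus, and the ratio without the leading nuclei was -1.16 (-1.88 to -0.46). With clusters built with the members, 2 members were higher. The Cajal-Retzius markers, of neurons at the brain surface, lay in the same direction in these nuclei, with 101 and 60 UMIs, and their part in it was not tested. The median ratio was 0.18, against -0.0059 over all genes with enough UMIs.

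In vascular nuclei 11 members had enough UMIs and none was higher by 1.5-fold, against 6.92% of all genes, with Col4a1 just under the limit at a fold of 1.48. This count was 4 with the highest doublet scores removed, 2 with a minimum of 200 genes or of 20 UMIs, and 1 with a minimum of 1000 genes or scaling by the median of gene ratios. Col3a1 was lower, with 40 and 29 UMIs and -0.94 (-1.68 to -0.21), against 5.49%. It had 26 and 10 UMIs in endothelial nuclei, and 14 and 19 in mural nuclei at a ratio of 0.0018 (-1.07 to 1.11). In endothelial nuclei 3 nuclei held 44 of the 64 wildtype-labelled UMIs of Col3a1, Col1a1 and Col1a2. The median ratio of the 11 members was 0.21, against -0.021. The type IV sum was 600 and 1169 UMIs with a ratio of 0.49 (0.35 to 0.63), and without Col4a1 and Col4a2 the sum of the members had -0.024 (-0.16 to 0.11). Endothelial nuclei alone had 7 members with enough UMIs, of which Col4a1 was higher, against 7.72% of all genes, and none lower, against 7.65%. In mural nuclei 3 had enough and none was higher or lower, where 12.7% and 11.1% of all genes were.

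In progenitor nuclei 26 members had enough UMIs, of which 4 were higher with the knockout label, against 3.46% of all genes, and none lower, against 2.05%. They were Col23a1, Lama4, Col4a6 and Lamb2. The count was 1 with the highest doublet scores removed and 2 with clusters built with the members. Col23a1 had 48 and 109 UMIs, at a log2 ratio of 1.27 (0.76 to 1.79). Lama4 had 19 and 41 UMIs and 1.19 (0.37 to 2.06), and Lamb2 52 and 77 UMIs and 0.65 (0.12 to 1.19). The Col23a1 difference was uneven over the clusters. In the radial glia cluster led by Dbx2 (145 and 240 nuclei) it had 10 and 59 UMIs and a ratio of 1.76 (0.78 to 2.89). In the larger radial glia cluster (608 and 427 nuclei) it had 21 and 26 UMIs and a ratio of 0.68 (-0.20 to 1.58), and in dividing nuclei 10 and 12 UMIs and 0.24 (-1.10 to 1.61). With 200 or 1000 genes as the minimum, finer clusters, clusters built with the members, or the highest doublet scores removed, the ratio was 0.31 to 0.72 over the whole class. In the choroid plexus cluster it had the opposite sign, 58 and 26 UMIs and -1.69 (-2.42 to -1.0). Lama4 was at 0.052 once the highest doublet scores were removed. The endothelial markers had 216 and 433 UMIs in progenitor nuclei, a ratio of 1.09 (0.85 to 1.33), and their part in these differences was not tested. The median ratio of the members was 0.18, against -0.017 over all genes with enough UMIs.

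In neuron nuclei 34 members had enough UMIs. Higher were 3, against 3.44% of all genes: Col28a1, Col9a2 and Col4a4. Col28a1 had 25 and 51 UMIs, at a log2 ratio of 0.84 (0.12 to 1.59). In intermediate progenitors Col28a1 went the other way, with 16 and 2 UMIs and -2.64 (-5.80 to -0.55), under 50 UMIs. Its level in mural nuclei was 61.3 and 67.9 CPM, on 6 and 9 UMIs. Col9a2 had 62 and 122 UMIs and 0.78 (0.33 to 1.25), and Col4a4 28 and 53 UMIs and 0.73 (0.041 to 1.44). None of the 3 was higher with nuclei of 200 genes admitted. Lower was Col1a2, with 93 and 49 UMIs and -1.12 (-1.65 to -0.60), against 1.33%. Its level there, 8.51 and 3.93 CPM, lay far under the 428 and 468 of fibroblast nuclei, and its partner Col1a1 had 91 and 77 UMIs and -0.43 (-0.89 to 0.02). The fibroblast markers had 430 and 453 UMIs in neuron nuclei. Col9a2 had 9 and 22 UMIs in progenitor and 4 and 14 in fibroblast nuclei, too few to be counted, at ratios of 1.37 (0.20 to 2.68) in the first and 1.64 (-0.032 to 3.70) in the second. Over neuron clusters, 66 of its 122 UMIs with the knockout label lay in 1 cluster (620 and 1087 nuclei, led by Sim1, Pax2 and Hmx2), with 20 and 66 UMIs and a ratio of 0.70 (-0.041 to 1.5). Col25a1, Col11a1 and Lamc1, the members with the most UMIs in neurons, had ratios of -0.11 (-0.21 to -0.016), 0.12 (-0.038 to 0.27) and 0.13 (-0.062 to 0.33), in that order. The median ratio was 0.064, against -0.0032.

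**Figure D5:**
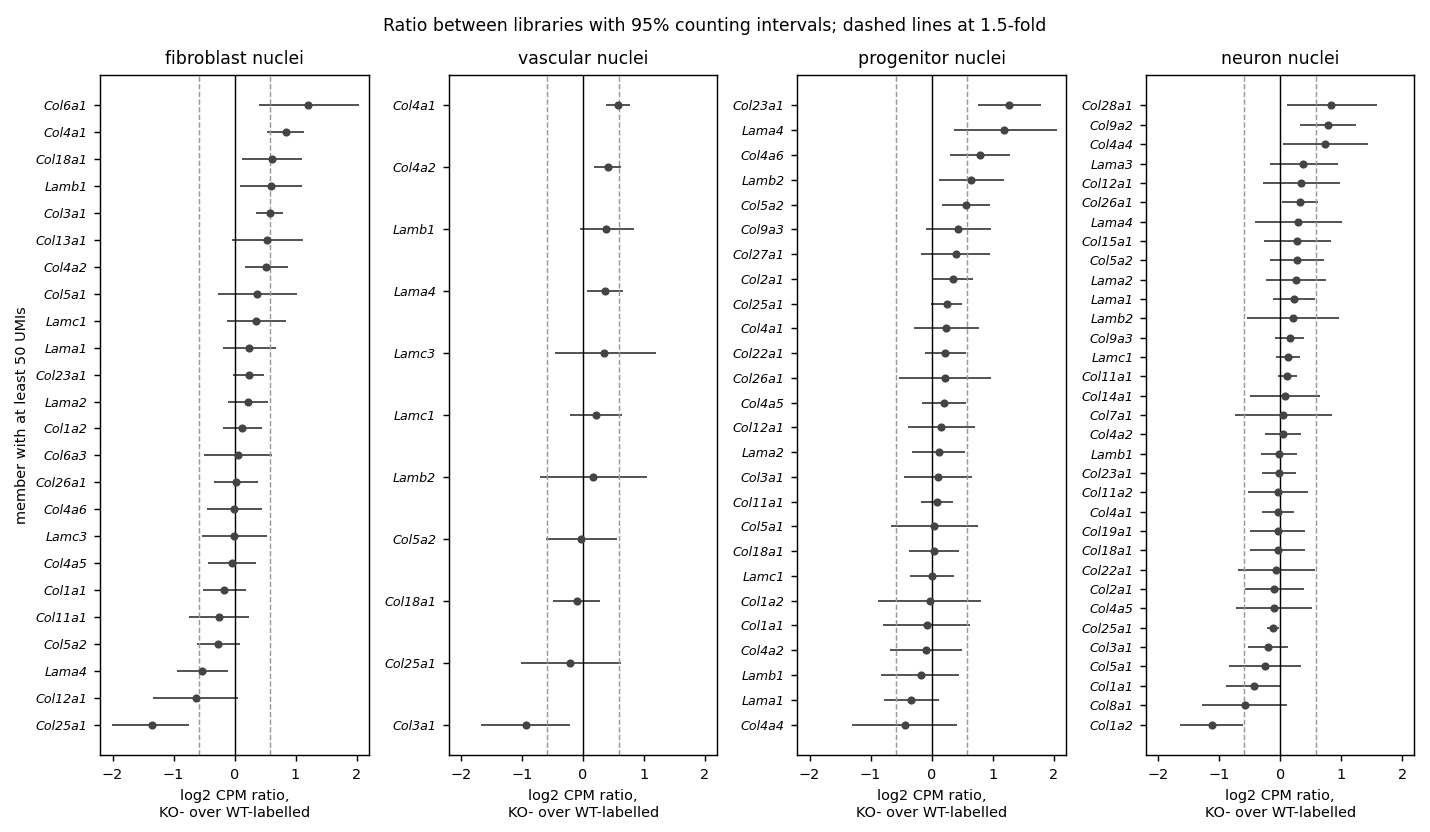
Log2 ratio of CPM, knockout-labelled over wildtype-labelled library, for the members with at least 50 UMIs in fibroblast, vascular, progenitor and neuron nuclei, with 95% counting intervals, a line at 0 and dashed lines at 1.5-fold. Col6a1 and Col4a1 lead in fibroblast, Col4a1 and Col4a2 in vascular and Col23a1 in progenitor nuclei, and most members lie between the dashed lines in each class.

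A list of 57 other genes of the same pathway was read beside them: receptors, basement membrane partners, enzymes that fold, modify and export the chains, crosslinkers and proteases. Over all nuclei 54 had enough UMIs, 5 were higher with the knockout label (3.57% of all genes were) and none was lower (1.34%). Timp1, an inhibitor of matrix proteases, had 16 and 44 UMIs, at a log2 ratio of 1.25 (0.40 to 2.18). Mmp9, a protease that cuts type IV collagen, had 61 and 142 UMIs and 1.01 (0.57 to 1.47). Nid1, which links laminin to type IV collagen, had 217 and 417 UMIs and 0.73 (0.49 to 0.98). The others were Lox, with 26 and 46 UMIs, and Loxl2, with 27 and 51, which crosslink collagen. The median ratio of the list was 0.084, against -0.010 over all genes with enough UMIs. The lowest ratios were those of Loxl1, a relative of Lox, with 166 and 137 UMIs and -0.49 (-0.82 to -0.15), and Adamts3, which trims fibrillar procollagen, with 1459 and 1402 UMIs and -0.27 (-0.37 to -0.16). Pcolce, which aids such trimming, had 40 and 39 UMIs and -0.24 (-0.92 to 0.43).

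In vascular nuclei 26 of the list had enough UMIs, with 6 higher and 1 lower, where 6.92% and 5.49% of all genes were. The chaperone Serpinh1, which holds newly folded collagen, had 76 and 194 UMIs, at a log2 ratio of 0.88 (0.49 to 1.28). Plod1, a lysyl hydroxylase of collagen chains, had 13 and 67 UMIs and 1.89 (1.02 to 2.87), and Ppib, which helps collagen chains fold, 82 and 181 UMIs and 0.67 (0.28 to 1.06). Nid2, a relative of Nid1, had 36 and 91 UMIs and 0.86 (0.29 to 1.46), and the proteases Mmp9 and Mmp14 had 39 and 101 and, for Mmp14, 26 and 66 UMIs. Ddr1, a collagen receptor, was lower, with 34 and 31 UMIs and -0.61 (-1.36 to 0.14). Of the other folding, modification and export genes, P4ha1, P4hb, Colgalt1 and Mia3 had enough UMIs and were neither higher nor lower. In the same vascular nuclei the endothelial markers had a ratio of 0.44 (0.35 to 0.52), the mural markers 0.17 (0.0018 to 0.34) and the erythroid markers 1.61 (1.43 to 1.79), and their part in these differences was not tested. In fibroblast nuclei 23 had enough and 6 were higher (Dag1, Ddr1, Nid2, Sparc, P4hb and Adamts2), where 5.85% of all genes were, with none lower, where 6.3% were. P4hb, a subunit of prolyl hydroxylase, had 22 and 49 UMIs and 0.99 (0.23 to 1.78) there. Progenitor nuclei had 38 with enough UMIs and 6 higher (Itga2, Itga11, Nid1, Sparc, P4ha3 and Mmp15), where 3.46% of all genes were, and none lower, where 2.05% were. Nid1 there had 19 and 72 UMIs and 2.0 (1.26 to 2.82), beside the endothelial marker values given above. Neuron nuclei had 45 with enough UMIs, 1 higher (P3h2, with 39 and 75 UMIs) and none lower, where 3.44% and 1.33% were.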

How the data were processed

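The authors deposited 1 matrix per library of raw counts, whole UMIs per gene and barcode. Per the file headers it was written by Cell Ranger 6.1.1, while the submitters' processing notes name Cell Ranger 3.0.1, STAR and the build GRCm39. Whether introns were counted, and how strand was used, is not given in the sources used here, and 44 of the 55 genes overlap a gene on the other strand.

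The matrices held 9763 and 10811 barcodes. Barcodes under 500 genes (2969 and 3904) and those kept by that rule but over 5% mitochondrial UMIs (108 and 227) were left out. Scrublet called 0 doublets, so none were removed, and an alternative removed the 8% of nuclei with the highest scores. Nuclei were clustered with scanpy 1.11.5 (2000 variable genes without the members, 30 components, Leiden resolution 1, 24 clusters). Clusters were named from marker lists, by thresholds set after the clusters had been seen. A cluster was named when at least 4 markers of a class were 2-fold higher than outside it, and 1.5-fold higher in each library. For neurons, 3 markers had to be 2-fold higher than in the clusters named as other classes. A cluster with as many markers of another class, or with a median UMI count outside set limits, could stay unnamed. Unnamed clusters entered no class. A neuron-like cluster whose leading genes held a mural marker (332 and 295 nuclei) was left out of the neurons.

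UMIs were summed per class and library and divided by the class total (CPM). Ratios have exact conditional binomial intervals, and levels exact Poisson intervals. No test was made, since each genotype has 1 library. Named genes were all type IV and laminin chains, the 3 members with the most UMIs and the 3 highest and lowest ratios per class, and the 5 largest folds over neurons. The remaining members are named for completeness, except that 1 member is in the sums and counts but is not reported here, and cluster values were added after seeing the data. The members and lists were chosen with earlier results of these data known. Gene positions came from GENCODE M39 on GRCm39, which held 98.8% of the identifiers, and promoter windows from RefSeq on GRCm38.p6. Python 3.11.15, numpy 2.4.6, scipy 1.17.1, pandas 2.3.3 and matplotlib 3.10.9 were used. Alternatives changed the gene minimum, the doublets, the clustering, the scaling, the UMI minimum, the fold and the thinning. Those that added the left-out neuron cluster, left out the leading nucleus or weighted nuclei equally were chosen after seeing the data.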

Additional observations from a re-analysis of the deposited data

How the results depend on the processing

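No paired analysis was possible because each genotype has 1 library. No result changed sign where it had been counted as higher or lower. Of the counts, class sums and shares, 104 values held within 1.5 times or their interval under the alternatives and 60 did not, and for single genes 456 held and 21 did not. The causes were not tested, except that a higher UMI minimum or fold leaves fewer genes to count. Shares of nuclei with a UMI grow with depth by construction. Counts that rest on a few members are limited by depth.

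With at least 200 UMIs, members above neurons fell to 16 in fibroblast, 8 in vascular and 7 in progenitor nuclei. Members higher with the knockout label were then 1 over all nuclei, 1 in fibroblast, 0 in neuron and 0 in progenitor nuclei, and members lower were 0 over all, 0 in fibroblast, 0 in neuron and 0 in vascular nuclei. With at least 20 UMIs, members higher were 5 over all, 6 in neuron, 7 in progenitor and 2 in vascular nuclei, and members lower were 4 in neuron, 2 in progenitor and 5 in vascular nuclei. At 2-fold, members higher were 0 over all, 1 in fibroblast, 0 in neuron and 2 in progenitor nuclei, and members lower were 0 over all, 1 in fibroblast and 0 in vascular nuclei.

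With a minimum of 200 genes, 6 members in progenitor nuclei stood above neurons. Members higher were 0 in neuron and 2 in vascular nuclei, and members lower 1 in fibroblast, 2 in neuron and 1 in progenitor nuclei. The log2 ratio of the sum was 0.084 over all and 0.076 in neuron nuclei. With a minimum of 1000 genes, 5 members in progenitor nuclei stood above neurons. Members higher were 1 in neuron and 1 in vascular nuclei, and 3 were lower in neuron nuclei.

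With the highest doublet scores removed, members higher were 5 in neuron, 1 in progenitor and 4 in vascular nuclei, and 1 each was lower in fibroblast and in progenitor nuclei. The summed log2 ratio was then 0.15 in neuron, 0.12 in progenitor and 0.55 in vascular nuclei. At the finer clustering (resolution 2), 1 member was lower in progenitor nuclei and their sum had 0.18. With the members among the variable genes, 2 members were higher in fibroblast and 2 in progenitor nuclei, and the neuron sum had 0.093. Scaling by the median of gene ratios made 1 member higher in vascular nuclei. With the left-out neuron cluster, 2 members were lower in neurons.

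Thinned to 2000 UMIs, the share of fibroblast nuclei with a Col3a1 UMI was 68.0% and 83.3%, and without thinning 71.6% and 87.3%. The share of vascular nuclei with a Col4a1 UMI was 72.7% and 76.1% at 2000 UMIs and 80.5% and 83.7% without thinning.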

Other observations

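The choroid plexus cluster (151 and 211 nuclei, 7 markers raised, among them Ttr, Folr1 and Kl) held several of the chains at high levels. Col9a3 had 47 and 80 UMIs and Col8a1 29 and 27. Col23a1 had 58 and 26 UMIs, at a log2 ratio of -1.69 (-2.42 to -1.0), which was opposite in sign to its ratio in progenitor nuclei, 1.27 (0.76 to 1.79). The progenitor ratio was 0.31 to 0.72 under other gene minima, other clusterings or with the highest doublet scores removed, and it was largest in 1 radial glia cluster, at 1.76 (0.78 to 2.89). Whether these ratios differ beyond the spread between animals could not be tested with 1 library per label.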
